A study of Apis mellifera with 5 samples.

Results

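Nurse honey bees feed larvae and the queen with royal jelly, and its proteins come from the hypopharyngeal glands in the worker's head. A total of 111 annotated unigenes had their highest RPKM in the glands of 9-day-old workers and at least 2 times their RPKM of day 3. They were taken from 2219 unigenes with a named best match in the nr protein database and at least 20 unique reads over 5 libraries, of which they made up 5.0%. RPKM divides the reads of a unigene by its length and by the total of unique reads of the library. Names with royal jelly or yellow, 13 of which met the same rule, were left out. With no limit on the name, 300 unigenes with at least 20 reads met the rule. Of these, another 111 were outside the annotation and 65 were in it without a name. The 111 unigenes described here are thus only the named part of what else was highest on day 9. The day 9 maximum and the ratio of day 9 to day 3 chose these unigenes, and both are given below as a description.

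The bees were full sisters of Apis mellifera carnica Pollmann from a single colony, whose queen had been inseminated with the sperm of 1 drone. Workers marked at emergence were taken at the ages of 3, 6, 9, 12 and 16 days, and the glands of 30 bees were pooled into 1 library for each age. No age had a second pool, so age cannot be told apart from the difference between pools, and every test of reads below compares 2 libraries, not 2 ages. In whole glands, fewer cells of a type and less RNA per cell cannot be told apart either.

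Worker glands grow after emergence, are filled with rough endoplasmic reticulum and secretory vesicles during nursing, and shrink as workers turn to foraging. Secreted proteins are made on ribosomes, folded and given sugars in the endoplasmic reticulum and the Golgi apparatus, and carried to the cell surface in vesicles. Making ribosomes itself needs RNA polymerases I and III and a large set of factors that cut, fold and modify ribosomal RNA.

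The libraries held between 1.21 M (day 9) and 1.82 M (day 16) unique reads, where M is 1e6, and between 17065 and 18378 unigenes had a read in each. The day 9 library had the fewest unique reads. The paper lists similar totals of clean reads for all ages, and for day 9 the largest share of reads that matched several positions. The annotation covers 7628 of 20522 unigenes, all with an RPKM below 10 on day 3, and 4297 of these have a named match. Transcripts that were abundant on day 3 are therefore outside it, and the check of the tissue rested on 24 weaker jelly and yellow names with at least 20 reads. Of these, 23 were read in all 5 libraries, and their sum was 83.0 (day 3), 369.4 (day 9) and 408.7 (day 16) RPM, the reads of a list per 1e6 unique reads of the library. A list of 38 muscle names changed with age as well, with 389.3 (day 3), 1541.2 (day 9) and 2484.0 (day 16) RPM. Only 1 of these 38 names was at 0 in some library. The 45 neuron names stayed between 315.4 and 469.3 RPM, and none was at 0 in any library. Of the other lists, 3 fat body names summed to between 15.6 and 23.7 RPM, 12 cuticle names to between 96.9 and 267.7, and 10 haemocyte names to between 127.7 and 368.5. Antenna names (7) went from 22.4 to 251.1 RPM, and photoreceptor names (9) stayed between 63.2 and 80.4. The part of such tissue in the day 9 maximum was not tested. The 111 unigenes hold 2 names found by the muscle words, 1 gustatory receptor and 1 retinal dehydrogenase. The 2 are matches to titin and to myosin-XV, and the search word myosin does not tell muscle myosins from others.

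These were weakly read unigenes. Together they held 7021 unique reads, with a median of 41 per unigene over the 5 libraries, a median of 6 on day 3 and a median of 12 on day 9. Only 16 had at least 100 reads, and 25 had fewer than 30. Their median length was 1042 bases, against 1356 for all 2219 unigenes. Most names are matches to other insects, with 53 from the ant Camponotus floridanus, 39 from the ant Harpegnathos saltator and 14 from the honey bee itself. At the limit of 20 reads stood BI504837, a hypothetical protein, and TC22924, a match to the vesicle transport protein GOT1B, while DB764648 and NP9549823 met all other conditions with 19 reads. At the limit of the ratio, DB731244 and TC20792 entered with 2.009 and NP9548602 and TC16100 stayed out with 1.968, each of these ratios resting on at most 20 reads on day 9.

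The sum of the 111 unigenes was 520.1 (day 3), 890.9 (day 6), 1619.9 (day 9), 889.0 (day 12) and 900.0 (day 16) RPM. Its exact 95% Poisson interval on day 9 was 1548.9 to 1693.3, and this and all intervals below cover counting error only. The rule gave every unigene its highest RPKM on day 9, so the sum in RPM had to be highest there. In reads as counted, where the choice also favours day 9, the sum was 883, 1353, 1956, 1195 and 1634 reads in the order of age. The RPM of days 6, 12 and 16 thus lay close to each other, between the levels of day 3 and day 9. Day 9 RPKM ranged from 2.91 to 60.5 with a median of 12.5, and the ratio of day 9 to day 3 ranged from 2.01 to 28.1 with a median of 2.66.

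The shape around the maximum varied. The second highest library was day 6 for 42 unigenes, day 16 for 36 and day 12 for 33, and never day 3. The median unigene kept 55.7% of its day 9 RPKM in the day 6 library (quartiles 37.8 and 72.9), 53.9% in that of day 12 (37.0 and 74.9) and 55.4% in that of day 16 (41.6 and 74.3). Only 10 unigenes were below 50% of day 9 in all 3 of these libraries. Day 16 was above day 3 in 88 unigenes and below it in 23. The rule chose unigenes with day 3 at or below 50% of day 9. That choice favours a day 16 above day 3 and disfavours day 3 as the second highest library, so both results are a description. The median log2 ratio of day 16 to day 3 was 0.65, against -0.01 for all the unigenes from which the set was taken.

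**Figure D1:**
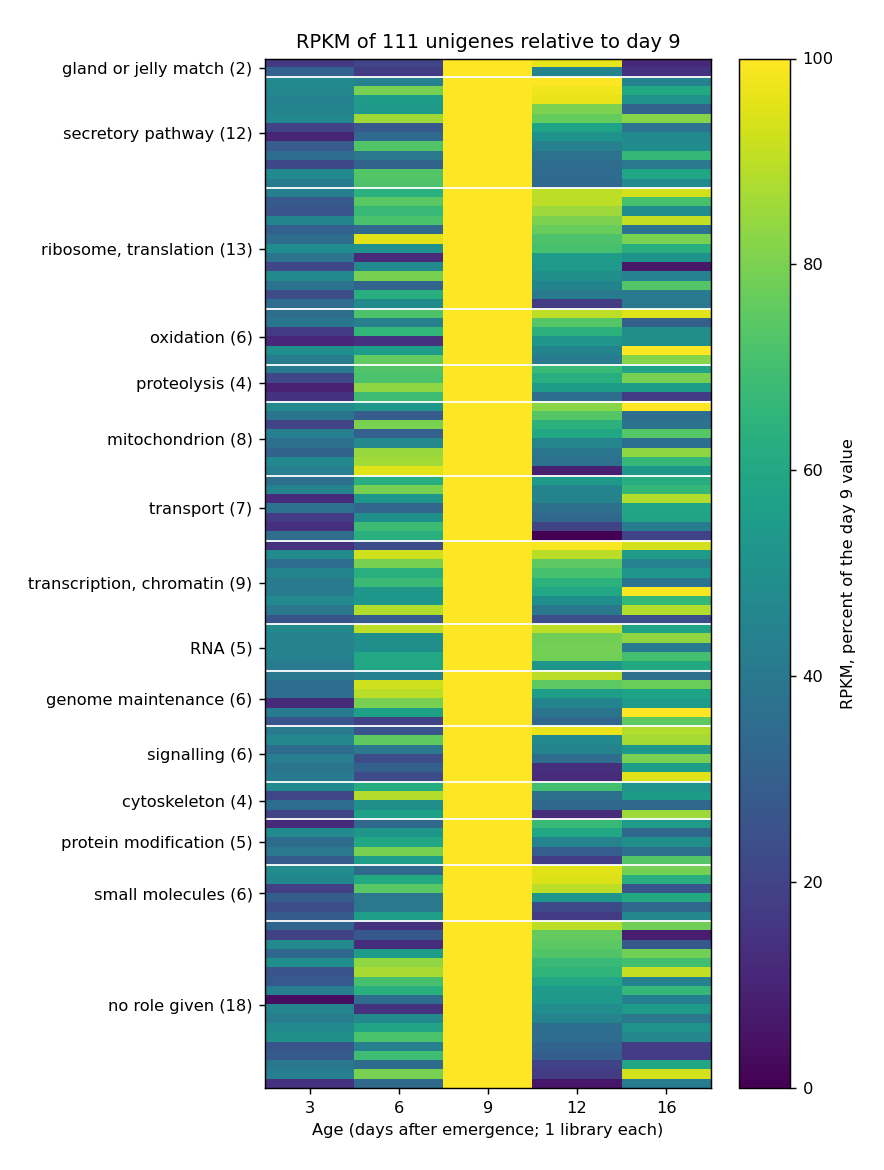
RPKM of the 111 unigenes in each library as a percentage of the day 9 value, 1 row per unigene, grouped by the role of the best match (number in brackets) and ordered within a group by day 12. Day 9 is 100 in every row because the rule chose it, and the levels of days 6, 12 and 16 differ between rows within every group.

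For most of these unigenes the reads could not separate day 9 from the next highest library. The day 9 RPKM was less than 1.25 times the second highest in 42 unigenes and at least 2 times in 10, with a median of 1.34 and a maximum of 3.46. The exact 95% interval of this ratio lay above 1 in only 7 unigenes, namely TC14988, TC21481, TC19313, TC15365, TC21949, TC18128 and DB755461. In TC15365, TC21949 and DB755461 the lower end of this interval was only 0.03, 0.02 and 0.04 on the log2 scale. The rule chose day 9 as the maximum and no interval was adjusted for that choice, so the 7 are a description. For all others, the label of a day 9 maximum holds for the deposited values, and day 9 was not separable from another library at this depth. The interval of day 9 to day 3 lay above 1 in 55 unigenes and above 2 in 8.

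How the libraries are scaled decides which unigenes are in the set. The day 9 library has the fewest unique reads, so scaling to unique reads raises it more than the others. With the reads taken as counted, as if the libraries had equal totals of unique reads, 32 unigenes met the rule, all of them among the 111. With TMM factors from edgeR, which put day 9 at 0.40 higher on the log2 scale relative to day 3, 170 met it, of which 91 were among the 111, and 16 of the 20 that left were highest on day 12 instead. A total of 31 unigenes met the rule under these scalings and without the most abundant unigenes in the total. They include matches to SAR1b, GOT1B, lysosomal alpha-mannosidase, zinc transporter 7, DDX10, RRN3, the monooxygenase TC21481 and the cytochrome P450 TC15365.

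Comparisons that leave out days 3 and 9 use values that the rule did not choose, except that it kept them below day 9. The median log2 ratio of the 111 unigenes was -0.09 for day 12 against day 6, where the 2219 unigenes had -0.28, with 49 unigenes above 0 and 62 below. For day 16 against day 6 it was -0.06 in both sets. For day 16 against day 12 it was 0.08, against 0.25 for the 2219. A unigene was called between 2 libraries if the false discovery rate was 0.001 or less and the RPKM differed by 2 times or more. From day 6 to day 12, 2 were called higher (TC16133 and TC21481; 1.19% of all unigenes tested) and 1 lower (TC14988; 6.41%). From day 6 to day 16, 1 was called higher (TC21481; 1.92%) and 0 lower (3.67%). From day 12 to day 16, 0 were called higher (2.33%) and 2 lower (TC16133 and TC18017; 0.748%). These background shares are over all unigenes. Among the 2219 from which the set was taken, which the annotation limits to a low RPKM on day 3, they were 2.39% higher and 1.04% lower from day 6 to day 12, 5.0% and 0.135% from day 6 to day 16, and 1.80% and 0.225% from day 12 to day 16. In each direction of these pairs at most 2 of the 111 were called, and for the rest a difference between days 6, 12 and 16 was not detectable at this depth.

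The comparisons with days 3 and 9 are the ones the rule used. Calls for a higher level on day 9 than on day 3 numbered 13, where 1.27% of all unigenes tested were so called, and calls for a lower level 0, where 6.31% were. Among the 2219 unigenes 2.61% were called higher and 0.27% lower, so a count of 0 lower is near the background of unigenes with a low RPKM on day 3. The rule itself also bars a lower call. All 13 had at least 55 reads, so the other 98 include unigenes with ratios as large but too few reads to be called. Day 6 against day 3 gave 3 calls higher (0.574% of all tested), day 12 against day 3 gave 3 (1.80%) and day 16 against day 3 gave 4 (2.51%). These were 2.7%, 2.7% and 3.6% of the 111, where 1.08%, 4.28% and 7.26% of the 2219 were called higher. In each of these pairs 0 were called lower (0.289%, 12.5% and 9.90% of all tested, but 0%, 2.52% and 1.13% among the 2219). Day 9 against day 6 gave 2 calls higher (0.378%) and 0 lower (0.803%). Against day 9, 3 were called lower on day 12 (1.44%) and 5 on day 16 (1.45%), and 0 higher on either (0.788% and 1.54%). The rule made day 9 the maximum, so these counts of 0 were fixed by it. Among the 2219, 0.811% were called higher on day 9 than on day 6. Called lower than on day 9 were 0.27% on day 12 and 0.27% on day 16. With an assumed coefficient of variation of 0.2 between replicate libraries, only TC14988 and TC21481 were called for day 9 against day 3.

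**Figure D2:**
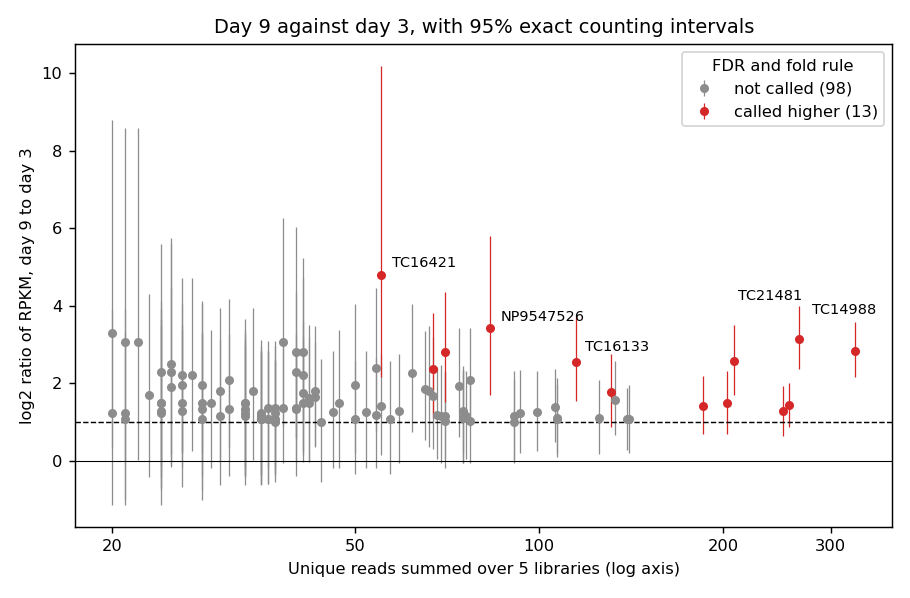
Log2 ratio of RPKM of day 9 to day 3 for each of the 111 unigenes against its unique reads over 5 libraries (log axis), with exact 95% counting intervals. The 13 called unigenes (red) all have at least 55 reads, the dashed line marks the ratio of 2 that the rule required, and intervals widen as reads become fewer, with 55 of the 111 lying wholly above 0.

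Oxidation enzymes held the highest day 9 level. TC21481 matches dimethylaniline monooxygenase 5, a flavin-containing enzyme that adds oxygen to nitrogen and sulfur compounds. Its RPKM was 6.88 (day 3), 8.66 (day 6), 60.5 (day 9), 31.5 (day 12) and 29.8 (day 16), from 16, 18, 100, 58 and 74 reads. It was low on days 3 and 6 and high from day 9 on. The log2 ratio of day 9 to day 6 was 2.80 (95% interval 2.07 to 3.62), and those of day 12 to day 6 and day 16 to day 6 were 1.86 and 1.78. Day 9 was also above day 12, by 1.92 times.

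TC15365 matches cytochrome P450 4C1, of a family that oxidises lipids and foreign compounds. Its RPKM was 4.19 (day 3), 16.4 (day 6), 24.8 (day 9), 15.9 (day 12) and 12.3 (day 16). Here day 3 alone was low, and the log2 ratio of day 6 to day 3 was already 1.97 (1.09 to 2.94).

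TC13925 matches molybdenum cofactor sulfurase, which activates aldehyde oxidase and xanthine dehydrogenase. It had an RPKM of 4.98 (day 3), 10.1 (day 6), 14.0 (day 9), 12.6 (day 12) and 13.3 (day 16). Day 9 was 1.05 times day 16, and days 6, 9, 12 and 16 were not separable from each other. TC18947 matches epidermal retinal dehydrogenase 2, and DB731244 a honey bee protein named as similar to CG9518. They were close to their day 9 RPKM on day 16 too, at 81.6% and 99.8%.

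Transport and membrane proteins held the unigene with the most reads. TC14988 matches nose resistant to fluoxetine protein 6, a membrane protein named from Caenorhabditis elegans, in which its loss changes the response to that drug. Its RPKM was 5.96 (day 3), 29.4 (day 6), 43.0 (day 9), 8.89 (day 12) and 18.0 (day 16), from 22, 97, 113, 26 and 71 reads. The pattern was high on days 6 and 9, low on day 12 and intermediate on day 16. The log2 ratio of day 12 to day 6 was -1.72 (-2.41 to -1.09) and that of day 12 to day 9 was -2.27 (-2.95 to -1.65).

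TC21949 matches bestrophin-3, of a family of chloride channels. It had an RPKM of 5.33 (day 3), 9.05 (day 6), 14.4 (day 9), 7.80 (day 12) and 8.96 (day 16). Day 9 stood 1.59 times above day 6, with an interval on the log2 scale of 0.02 to 1.32.

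Of the 7 transport unigenes, 6 were lower on day 12 than on days 6 and 16, and their median on day 12 was 37.0% of day 9. TC16856, a match to thiamine transporter 2, had 5 reads (day 3), 8 (day 6), 10 (day 9), 0 (day 12) and 3 (day 16). The 0 allows up to 3 reads, so the difference of day 12 from day 16 was not detectable at this depth. TC18343, a match to neutral amino acid transporter 7, had 5, 8, 8, 4 and 8 reads, and NP9553117, a match to solute carrier 35 E2 and the exception, had 9, 7, 17, 7 and 15.

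Among the mitochondrial matches, TC19313 is the flavoprotein subunit of succinate dehydrogenase, which works in both the citric acid cycle and the respiratory chain. It had an RPKM of 7.78 (day 3), 9.94 (day 6), 21.1 (day 9), 9.59 (day 12) and 7.62 (day 16), from 42, 48, 81, 41 and 44 reads. Day 9 alone was high, at 2.12 times the next library, and the other 4 lay near the same level. The log2 ratios of day 12 and day 16 to day 9 were -1.14 (-1.72 to -0.58) and -1.47 (-2.03 to -0.92). In reads as counted it was 1.93 times day 3 and left the set. The other 7 mitochondrial unigenes, among them NP9551407 (adrenodoxin oxidoreductase) and TC23922 (octanoyltransferase, of the lipoic acid pathway), had between 25 and 68 reads. In any pair of libraries 0 of them was called. Of the 2219, at most 7.26% were called in a direction of a pair.

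**Figure D3:**
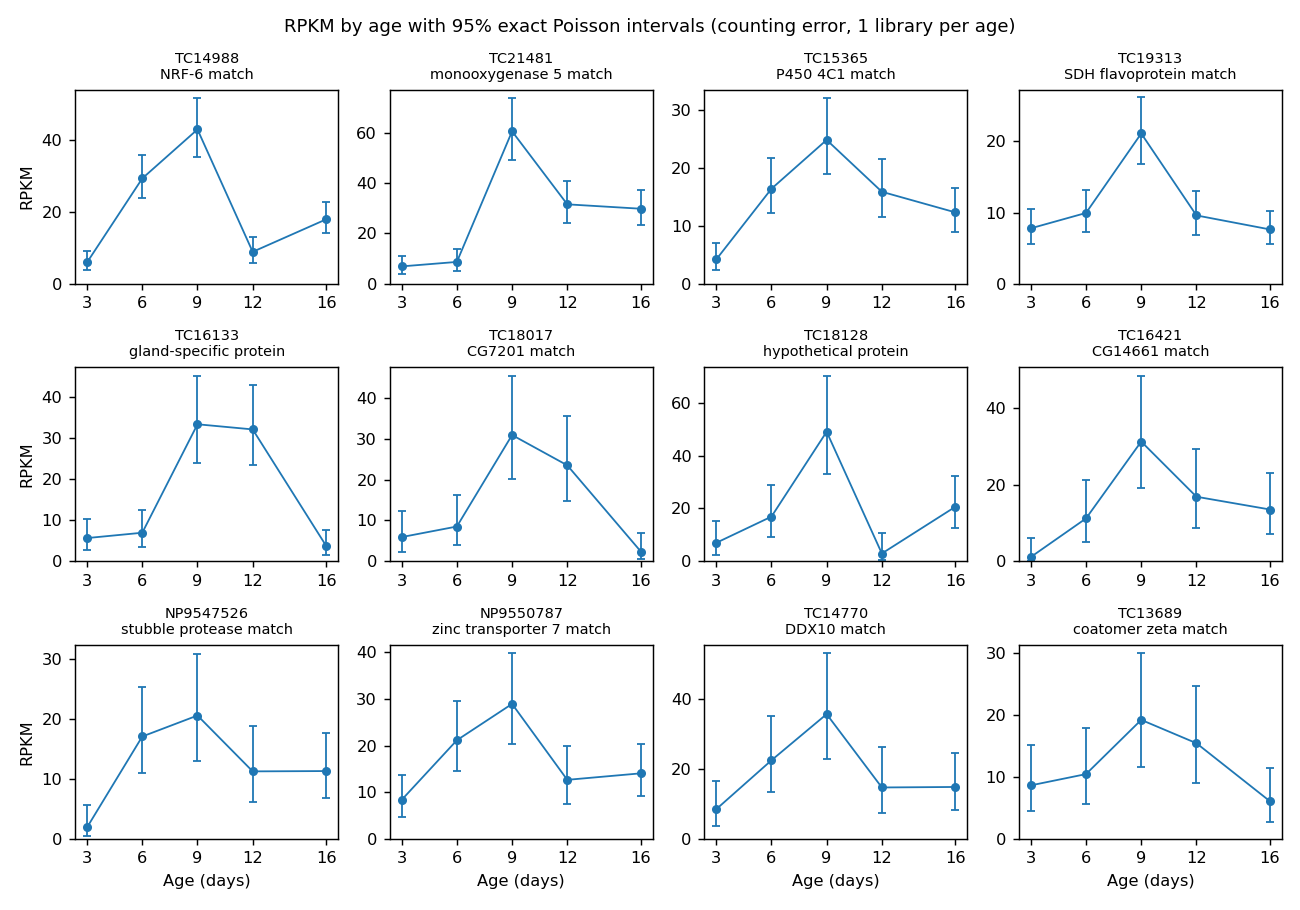
RPKM by age for 12 of the unigenes, with exact 95% Poisson intervals of the counts and 1 library per age; each panel has its own linear axis from 0. TC19313 shows a single high library, TC21481 and TC16421 remain above day 3 after day 9, TC16133 and TC18017 are high on days 9 and 12 and low on day 16, and TC14988 and TC18128 are low on day 12.

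The rule left out names with royal jelly or yellow, but TC16133, named hypopharyngeal gland-specific protein, stayed. Its RPKM was 5.65 (day 3), 6.95 (day 6), 33.4 (day 9), 32.1 (day 12) and 3.70 (day 16), from 10, 11, 42, 45 and 7 reads. It was high on days 9 and 12 and low in the other 3 libraries, and it was called between these groups of libraries in every pair. The log2 ratio of day 16 to day 12 was -3.12 (-4.51 to -1.96), and that of day 12 to day 6 was 2.21 (1.23 to 3.31). Days 9 and 12 were not separable, at -0.06 (-0.69 to 0.59), and with TMM its maximum moved to day 12, as did that of TC13925 above.

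TC18017, a match to a honey bee protein named as similar to CG7201, had the same outline. Its RPKM was 5.92 (day 3), 8.50 (day 6), 30.9 (day 9), 23.5 (day 12) and 2.37 (day 16), the last from 3 reads. Its log2 ratio of day 16 to day 12 was -3.31 (-5.69 to -1.57).

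TC14415 is named an immediate early protein homolog after a match in Plasmodium yoelii yoelii, while another field of the annotation names major royal jelly protein 3. Its reads were 8 (day 3), 4 (day 6), 18 (day 9), 9 (day 12) and 4 (day 16), and they covered only 9.14% to 9.32% of its length in each library. Without TC16133 and TC14415 the sum of the remaining unigenes was, in the order of age, 509.5, 881.0, 1570.2, 848.9 and 893.9 RPM. The rule chose every remaining unigene for its day 9 maximum, so this sum too had to be highest on day 9.

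The 13 jelly and yellow names that the rule left out kept less of their day 9 level on days 6 and 16 than the 111, but not on day 12. Their sum was 44.2 (day 3), 100.1 (day 6), 282.4 (day 9), 164.4 (day 12) and 56.2 (day 16) RPM. Their medians were 35.8% (day 6), 58.4% (day 12) and 20.5% (day 16) of the day 9 level, where the 111 unigenes had 55.7%, 53.9% and 55.4%. The difference was largest on day 16, where 13 of 13 jelly and yellow names were below 36% of day 9. Both sets were chosen by the same rule and this difference was not tested. The low day 16 level is that of the 13 chosen for a day 9 maximum. All 24 jelly and yellow names with at least 20 reads summed to 369.4 (day 9) and 408.7 (day 16) RPM.

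**Figure D4:**
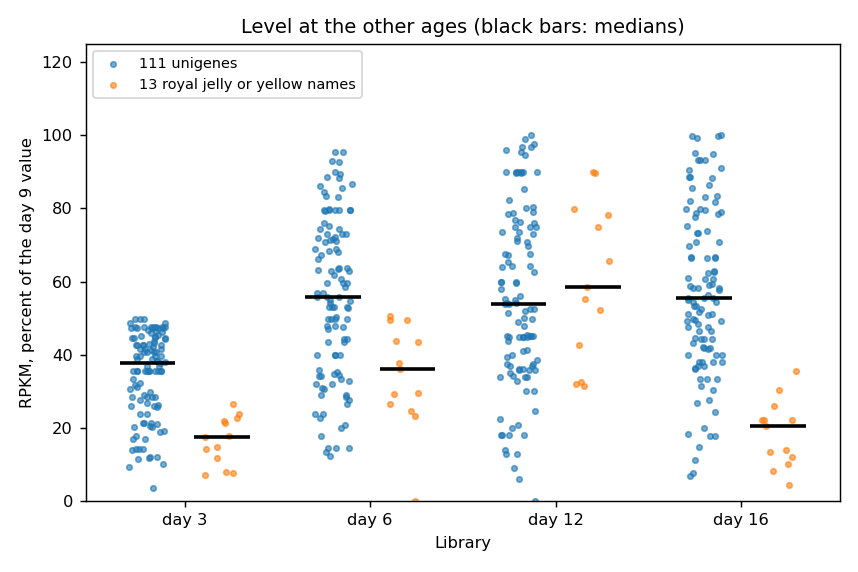
RPKM on days 3, 6, 12 and 16 as a percentage of the day 9 value, for the 111 unigenes (blue) and the 13 royal jelly and yellow names that met the same rule (orange), 1 point per unigene, with medians as black bars. On day 16 the median is 55.4% for the 111 unigenes and 20.5% for the 13; the rule keeps all day 3 points at or below 50%.

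The secretory pathway gave 12 unigenes, with day 9 RPKM between 4.27 and 28.9. In 9 of them the interval of day 9 to day 3 lay above 1, against 55 of all 111. For this pair 1 was called, where 11.7% of the 111 and 2.61% of the 2219 were. The rule used this ratio, so both counts are a description. The called unigene was NP9550787, a match to zinc transporter 7, which in mammals moves zinc into the Golgi apparatus. Its RPKM was 8.34 (day 3), 21.1 (day 6), 28.9 (day 9), 12.6 (day 12) and 14.0 (day 16), so that days 6 and 9 were the high libraries.

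Vesicle coats and their regulators came next. TC21246 matches Rab-3, a GTPase of regulated exocytosis, and had 15, 23, 23, 25 and 21 reads from day 3 to day 16, which is nearly flat in reads. TC13689, the zeta subunit of the coatomer that coats vesicles within the Golgi, had an RPKM of 8.61 (day 3), 10.4 (day 6), 19.2 (day 9), 15.4 (day 12) and 6.04 (day 16). TC16635 matches SAR1b, the GTPase that starts the coat of vesicles leaving the endoplasmic reticulum, and had 3, 4, 10, 4 and 6 reads. TC22924 (GOT1B) had 1, 3, 7, 4 and 5 reads, and its log2 ratio of day 9 to day 3 was 3.30 with an interval from 0.34 to 8.79. Day 9 had the most reads in the last 3, but in none was it separable from the next library.

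Folding and stress factors of the endoplasmic reticulum were present as well. TC18327 matches ATF-6 alpha, a membrane-bound transcription factor released when proteins fail to fold there, and its RPKM was 6.48 (day 3), 11.9 (day 6), 13.9 (day 9), 10.6 (day 12) and 11.4 (day 16). TC19885, a match to the thioredoxin domain protein TXNDC11, had 5.70, 8.77, 12.0, 4.20 and 7.11. Their ratios of day 9 to day 3 were 2.15 and 2.11, near those of Rab-3 (2.16) and coatomer zeta (2.23). Of 8 heat shock and chaperone names with at least 20 reads, 0 were in the set.

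Enzymes of glycosylation and of the lysosome made up the rest. TC15116 matches phosphoacetylglucosamine mutase, which makes a precursor of the sugar donor for glycoproteins, and its RPKM was 4.15 (day 3), 7.34 (day 6), 10.2 (day 9), 3.49 (day 12) and 4.85 (day 16). DB753489 matches lysosomal alpha-mannosidase, which trims glycans, with 4, 5, 14, 9 and 8 reads. NP9548230, the phosphotransferase that in mammals tags lysosomal enzymes with mannose 6-phosphate, had nearly the same RPKM on days 9 and 12, at 4.27 and 4.13.

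Ribosome production and translation was the largest role, with 13 unigenes. Its members had medians of 62.9% (day 6), 70.9% (day 12) and 51.2% (day 16) of the day 9 level, and 6 were second highest on day 12. For day 9 against day 3, 0 of the 13 were called, where 11.7% of the 111 and 2.61% of the 2219 were. Transcription of ribosomal genes was represented by NP9546791, a match to RRN3, which brings RNA polymerase I to ribosomal DNA. Its RPKM was 2.84 (day 3), 7.26 (day 6), 10.8 (day 9), 9.22 (day 12) and 5.31 (day 16). NP9550864, a subunit of the factor TFIIIC for RNA polymerase III, had 2.93, 4.64, 6.52, 5.24 and 5.93. Day 3 was the lowest library for both.

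Processing of ribosomal RNA was represented by TC14770, a match to the helicase DDX10, with an RPKM of 8.47 (day 3), 22.5 (day 6), 35.7 (day 9), 14.7 (day 12) and 14.9 (day 16). Its log2 ratio of day 9 to day 3 was 2.08 (0.87 to 3.44), without passing the false discovery rate. NP9553685 matches protein arginine N-methyltransferase 3, which methylates a protein of the small ribosomal subunit, and had 5.97, 5.01, 15.7, 7.07 and 11.5. It was low on days 3, 6 and 12. Under TMM scaling both were called for day 9 against day 3.

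Of the ribosome and its helpers themselves, TC15456 (40S ribosomal protein S24) had 5, 12, 10, 8 and 12 reads and DB733754 (60S ribosomal protein L35a) had 3, 6, 10, 6 and 1. TC18625, subunit H of the initiation factor eIF3, had 5, 6, 10, 2 and 6 reads. TC18526, the catalytic subunit of a tRNA methyltransferase, had 7, 2, 13, 8 and 10, and NP9545804 is a mitochondrial seryl-tRNA synthetase with 6, 9, 9, 5 and 6. By search words, 4 of 63 protein synthesis names with at least 20 reads were in the set, or 6.35% against 5.0% of all 2219. For day 9 against day 3, 0 of the 63 were called, where 2.61% of the 2219 were called higher.

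Of 4 proteases, 1 was called for day 9 against day 3, where 11.7% of the 111 and 2.61% of the 2219 were. It was NP9547526, which matches stubble, a membrane serine protease that in Drosophila shapes legs, wings and bristles. Its RPKM was 1.91 (day 3), 17.1 (day 6), 20.6 (day 9), 11.3 (day 12) and 11.3 (day 16), from 3, 24, 23, 14 and 19 reads. Only day 3 was low, with a log2 ratio of day 6 to day 3 of 3.16 (1.44 to 5.54). A second stubble match, NP9553716, had 5.36, 9.41, 12.9, 8.70 and 7.52, a far flatter course. NP9553872, a match to the astacin metalloprotease nas-4 of Caenorhabditis elegans, had 3, 13, 15, 6 and 4 reads, high on days 6 and 9. TC21349, a match to an aminopeptidase that removes residues in front of proline, had 3, 9, 10, 7 and 12 reads.

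Transcription factors and chromatin proteins numbered 9. TC14883 matches bowel, a zinc finger protein that patterns the gut and legs of Drosophila, and its RPKM was 9.76 (day 3), 12.6 (day 6), 23.7 (day 9), 14.2 (day 12) and 23.5 (day 16). It was equally high on days 9 and 16, and with TMM its maximum moved to day 16. NP9547067 matches the homeotic protein proboscipedia, which specifies mouthparts, and had 2, 3, 10, 11 and 14 reads, low on days 3 and 6 only. DB755461, a match to RAS-responsive element-binding protein 1, had 4, 4, 11, 3 and 4 reads and thus the largest ratio of day 9 to the second highest library, 3.46. By search words, 8 of 128 transcription and chromatin names were in the set (6.25%).

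Signalling proteins differed from the other roles in the library next to day 9. In 5 of 6 it was day 16, and the medians were 28.6% (day 6), 40.4% (day 12) and 82.9% (day 16) of the day 9 level. The gustatory receptor NP9549833 had 7, 5, 13, 2 and 11 reads and the match to guanylate cyclase 32E, TC22987, had 4, 2, 7, 1 and 10. With 6 unigenes of 24 to 75 reads this is a description only, and in 0 of them did the interval of day 9 to day 3 lie above 1.

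The remaining roles were small. For DNA replication and repair (6 unigenes), TC20214, the small subunit of DNA polymerase delta, had 5, 5, 9, 9 and 5 reads and NP9551936, the checkpoint protein RAD1, had 1, 6, 6, 3 and 5. For RNA (5), TC12350, a match to the helicase vasa that is known from germ cells, had an RPKM of 6.22 (day 3), 11.8 (day 6), 13.1 (day 9), 11.8 (day 12) and 7.56 (day 16), level over days 6 to 12. For protein modification (5), TC13390, a small ubiquitin-like modifier, had 6, 9, 12, 6 and 9 reads, TC18596 (cullin-3) had 4, 4, 6, 4 and 3 and TC20237 (an F-box protein of ubiquitin ligases) had 5, 9, 9, 3 and 5. For lipids and small molecules (6), TC18068, a sphingomyelin synthase relative, had an RPKM of 1.60 (day 3), 6.27 (day 6), 8.44 (day 9), 7.59 (day 12) and 2.25 (day 16). For adhesion and cytoskeleton (4), NP9543921 (integrin alpha-PS2) had 4, 5, 8, 3 and 4 reads and TC18663 (myosin-XV) had 5, 19, 17, 7 and 14. In these 26 unigenes 0 were called for day 9 against day 3, where 11.7% of the 111 and 2.61% of the 2219 were.

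The largest ratio of all belonged to a unigene without a role, TC16421, a match to a honey bee protein named as similar to CG14661. Its RPKM was 1.11 (day 3), 11.2 (day 6), 31.3 (day 9), 16.9 (day 12) and 13.5 (day 16), the first from 1 read. Its ratio of day 9 to day 3 was 28.1, with an interval on the log2 scale from 2.17 to 10.19. TC18128, a hypothetical protein, had an RPKM of 6.98 (day 3), 16.9 (day 6), 49.1 (day 9), 2.94 (day 12) and 20.7 (day 16). It was lowest on day 12, with 2 reads, and its log2 ratio of day 12 to day 9 was -4.06 (-7.17 to -2.08). TC16831, a match to transmembrane protein 60, had 8.03, 13.2, 24.1, 17.6 and 19.0, and NP9551549, a kelch repeat protein, had 9.97, 12.3, 21.0, 7.55 and 10.7.

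A second unigene with the same best match was found for 14 of the 111, 21 such unigenes in all. Of these, 7 had at least 20 reads, 6 of which were highest on day 16 and 1 on day 12. The 7 belong to only 4 of the 111. BI503814, CK629392, TC22285 and TC23006, all highest on day 16, share the titin match of the single unigene CK629211. Among the 7, DB767239 also matches DDX10 and had 6, 1, 6, 4 and 10 reads, where TC14770 had 8, 19, 24, 11 and 15. TC16683 also matches the small subunit of DNA polymerase delta and had 14, 7, 6, 4 and 15 reads. The match to titin in the set, CK629211, had 2, 5, 7, 1 and 9 reads, while BI503814 with the same match had 3, 11, 23, 8 and 61. The other 14 had fewer than 20 reads each, and 4 of these were highest on day 9, such as TC16753, a second match to ribosomal protein S24, with 3, 5, 5, 1 and 4 reads. Whether unigenes of 1 match are parts of 1 gene is not known from the files used here.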

How the data were processed

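Gland RNA of 5 pools was sequenced, 1 library per age. Per the methods, the authors mapped clean reads with SOAP2 (version not given in the sources used here), allowing at most 2 mismatches, to the DFCI Honey Bee Gene Index. The authors gave each library a count of reads unique to 1 unigene. The deposited RPKM was recomputed exactly from this count, the length and the total of unique reads. The deposited coverage (percent, the fraction of a unigene under reads) was used only to describe TC14415 and TC21246, after their values were seen. Of several annotation sheets the named best match of the day 3 file was used, where "-" was read as no name.

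For each pair of libraries the two-sided test of Audic and Claverie was run on all unigenes with a read in the pair, with Benjamini-Hochberg adjustment over them, and called at the thresholds of the study's methods (false discovery rate 0.001, absolute log2 ratio 1). The test was tested on simulated data. Ratios have exact 95% Clopper-Pearson intervals and medians a pseudocount of 0.1 RPKM. A count of 0 allows 3 reads. PCR copies are not independent molecules. Unigenes are named in the text if they were among the 12 with the most reads, the 10 with the highest ratio of day 9 to day 3 or to the second highest library among those with at least 50 reads, the 4 with the most reads of a role, or the 2 on each side of a limit. TC14415, TC16635, NP9547067, DB755461, NP9549833, TC22987, CK629211, the 21 unigenes of shared matches and the lists of maxima across scalings were added after their values were seen. The members, the rule and the search word lists were chosen with earlier results of these data known, and roles were given by hand to 93 unigenes after their names were seen. Of 46 unigenes with an accession 16 matched a RefSeq gene (Amel_HAv3.1), and none of these neighbour each other; no sequence is shown. Alternatives were TMM factors (edgeR 4.0.16, R 4.3.3), other minimum reads and ratios, an assumed coefficient of variation of 0.2 with edgeR's exact test, a pseudocount of 1, and a total without the 16 unigenes that were among the 10 most abundant of a library. Added after seeing the data were equal totals, search words at word starts, and TC14415 left out. Python 3.11.15, NumPy 2.4.6, SciPy 1.17.1, pandas 2.3.3 and matplotlib 3.10.9 were used.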

Additional observations from a re-analysis of the deposited data

How the results depend on the processing

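No paired analysis was possible because each age has 1 library. The number of unigenes in the set, 111, depends on its limits. It was 47 with at least 50 reads, 262 with no minimum, 41 at a ratio of at least 3, 192 at a ratio of at least 1.5, 170 with TMM, 175 without the most abundant unigenes in the total, and 32 with reads as counted and equal totals, an alternative chosen after seeing the data. Of the 13 unigenes called for day 9 against day 3, 10 stayed in the set with TMM and 7 with equal totals.

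With a coefficient of variation of 0.2 assumed, 2 unigenes were called for day 9 against day 3, 0 for days 6, 12 and 16 against day 3, 0 lower on day 12 than on day 9, and 1 lower on day 16 than on day 9. With equal totals, 5 were called for day 9 against day 3 and 1 lower on day 16 than on day 9. Calls lower on day 16 than on day 9 were 3 with TMM. Calls for day 12 against day 3 were 5 without the most abundant unigenes, and those for day 16 against day 3 were 2 at a ratio of at least 3.

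The share second highest on day 6 was 37.8%, and 22.4% with TMM. That on day 12 was 29.7%, and 18.8% with equal totals. The median log2 ratio with equal totals was -0.33 for day 12 against day 6 and 0.37 for day 16 against day 12. Of 145 results under an alternative, 115 moved by less than 1.5 times or stayed in their interval. The causes of the other 30 were not tested, beyond the fewer or more unigenes that a limit admits by construction. TMM raised days 6, 9, 12 and 16 relative to day 3 by 0.15, 0.40, 0.60 and 0.47 on the log2 scale. Depth limits most statements, since the median unigene had 12 reads on day 9.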

Other observations

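The same rule applied to the other ages gave 90 unigenes highest on day 6, 138 on day 12 and 278 on day 16, where day 9 gave 111. The share called higher than day 3 was 0% for the day 6 set, 11.7% for day 9, 20.3% for day 12 and 49.3% for day 16. Among the 2219 these shares were 1.08%, 2.61%, 4.28% and 7.26%. Each set was chosen by the same ratio to day 3, so its share is a description. The sets also differed in reads, with medians of 33, 41, 41.5 and 72.5 per unigene. Among all 2219 unigenes, with no limit on the ratio, the numbers that peaked at each age, from the youngest, were 527, 479, 358, 325 and 530.

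Search words for signalling matched 27 of the 111 unigenes (4.53% of 596 names), but 7 of 228 at word starts (3.07%), since parts of the words occur inside names such as binding protein. Transporter words matched 6 of 113, mitochondrial words 6 of 89, secretory words 6 of 82, ubiquitin words 3 of 34 and cytoskeleton words 1 of 84. The secretory words also matched inside names, among them the mitochondrial import protein Tim13 (NP9550575). At word starts they matched 5 of 55, without Tim13. Lipid words matched 1 of 60.

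NP9553575, a match to a honey bee protein named as similar to CG2211, and NP9553872 (nas-4) are both 855 bases long. They had the same reads in 3 libraries, 13 on day 6, 15 on day 9 and 4 on day 16, but they match different RefSeq genes.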
